A study of Montastraea cavernosa with 311 samples.

Results

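The central carbon genes of the reef coral Montastraea cavernosa, those of glycolysis, the citric acid cycle, glycogen and the neighbouring pathways, were followed across 4 sites, 2 depths and a transplant experiment. A host isogroup, the assembled unit to which reads were counted, was a member when its deposited gene name contained one of 16 words or word parts such as hexokinase, aldolase, pyruvate, citrate, malate or glycogen. The names gave 87 members, of which 74 have a row in the count table, among 17901 host isogroups with a row. All 74 had at least 1 count in some library. The words also caught 18 isogroups whose names lie outside these pathways, such as an enzyme of tyrosine breakdown, and 12 of these have a row.

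The assay counted 3′ RNA tags, reads from the end of each transcript, in libraries of total RNA that hold coral and Cladocopium, its dinoflagellate symbiont. Natural colonies labelled shallow or mesophotic, the dim zone below the shallow reef, were sampled at 4 sites, whose codes are WFGB, EFGB, PRTER and CBC. After libraries with under 20000 host counts were left out, WFGB had 28 mesophotic and 35 shallow libraries, EFGB 21 and 39, PRTER 41 and 31, and CBC 22 and 36. The experiment at WFGB and EFGB had transplants, mesophotic controls and shallow controls at times labelled 6 and 12 with no unit, and title tags tied 26 natural libraries to its colonies as baselines. The baselines of transplants carry the mesophotic label. The libraries kept numbered 7, 8 and 5 for transplants at baseline, 6 and 12, then 8, 7 and 6 for mesophotic controls, and 9, 10 and 9 for shallow controls. No genotype or age is labelled, and the tissue of each library is not labelled beyond the organism. Total counts per library ran from 2649 to 1211111, with a median of 140660.

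Glycolysis splits glucose into pyruvate in the cytosol and yields ATP and NADH. Pyruvate enters the mitochondrion through a carrier, is turned into acetyl-CoA by pyruvate dehydrogenase, and is burned in the citric acid cycle. Corals receive much of their sugar and lipid from photosynthesis by their symbionts, which varies with light, and store part of it, while glycogen and gluconeogenesis move glucose in and out of reserve.

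Levels are given as CPM, counts scaled to the host total of the library, so they do not depend on how much symbiont RNA a library holds. A single count was worth between 0.873 and 49.99 CPM among the natural libraries kept, with a median of 7.88 CPM. In bulk tissue, fewer cells of a type and less RNA per cell cannot be told apart. A tag is counted at a transcript's end, so levels are not divided by length, and an order among members is an order of tag counts.

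The 3 facts of the libraries that touch every result below are their complexity, their campaign and their batch. The number of host isogroups with a count had a median of 4124 at WFGB, 2703 at EFGB, 1814.5 at PRTER and 1257 at CBC. Host totals ran the other way, with medians of 53072, 75094, 248022 and 223095. Site, collection campaign and barcode run, a stretch of library numbers within which no barcode pair repeats, overlap in part. All CBC libraries carry 1 collection month and year, on several days, and no other site shares it. Site and collection month therefore cannot be told apart there, while 1 run joins CBC with PRTER and 1 joins PRTER with WFGB and EFGB. All 48 natural libraries with X-14 in the title, the month and year of collection, are shallow ones of WFGB and EFGB. Isogroups were listed for other cell types by words in their names, such as mucin, trypsin or lipase for mucus and gland cells and synaptotagmin for neurons. These words also match longer names, so the lists need not be particular to a cell type. The 2 nematocyte isogroups had a median of 0 CPM in all 8 natural groups. The summed level of the mucus and gland isogroups had medians between 14900 and 26683 CPM by group, and that of the 21 muscle isogroups between 2486 and 3848 CPM.

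Together the members held 0.710% of the host counts of the natural libraries. The share of single libraries ran from 0.0202% to 2.47%. At WFGB its median was 0.403% in mesophotic libraries and 0.351% in shallow ones. The same medians were 0.540% and 0.403% at EFGB, 0.518% and 0.601% in PRTER libraries and 0.503% and 0.676% at CBC. The ranges of the 2 depths overlapped at every site. Enzymes placed by name in the citric acid cycle held 51.7% of the members' counts and those of glycolysis 32.8%. The pyruvate carrier, pyruvate dehydrogenase and its regulators held 6.86%, the glycogen genes 2.50%, gluconeogenesis and carboxylation 2.33%, the pentose phosphate genes 1.20%, lactate dehydrogenases and pyruvate formate lyase 1.10%, and ATP citrate lyase 0.319%.

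That distribution rests on a pair of isogroups, a malate dehydrogenase and glyceraldehyde-3-phosphate dehydrogenase, which held 72.6% of all member counts. The malate dehydrogenase Mcavernosa19235, which interconverts malate and oxaloacetate with NAD, had 3491 CPM over the pooled natural libraries and ranked 41st among host isogroups. It was detected, that is had at least 1 count, in 99.6% of libraries. It held 179918 of the 189217 counts placed in the citric acid cycle. Its name gives no compartment, so that placement is by name alone. Glyceraldehyde-3-phosphate dehydrogenase (GAPDH, Mcavernosa22152), the glycolytic step that reduces NAD, had 1664 CPM, ranked 82nd and was detected in 96.8% of libraries. The other malate dehydrogenase that passed the filter on low counts, Mcavernosa16765, had 41.3 CPM. Isogroups that share a name may share tags, and how the authors placed such tags is not given in the sources used here, so the split between malate dehydrogenases is uncertain.

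Mcavernosa19235 varied widely within every group. At WFGB it ran from 45.7 to 5943 CPM with a median of 701 in mesophotic libraries, and from 126 to 9907 with a median of 578 in shallow ones. At EFGB the mesophotic libraries ran from 105.3 to 8817 CPM with a median of 2271, and the shallow ones from 215 to 10204 with a median of 968. At PRTER the medians were 2393 CPM in mesophotic libraries, which ran from 14.2 to 6586, and 2288 in shallow ones, which ran from 51.6 to 6415. The depths overlapped throughout at these 3 sites, and none of the 3 was called (at EFGB the edgeR log2 fold, scaled by TMM, was -0.18 ± 0.54, adjusted p = 0.868). At CBC the mesophotic libraries ran from 0 to 8528 CPM with a median of 1437, 21 of 22 having a count, and the shallow ones from 285.9 to 18447 with a median of 3679. The CBC groups overlapped too, while the shallow median was the highest of the 8 and the lowest shallow library stood well above the lowest mesophotic one.

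GAPDH, Mcavernosa22152, had medians of 392 CPM in mesophotic and 337 CPM in shallow WFGB libraries. The medians were 951 and 347 CPM at EFGB, 597 and 768 in PRTER libraries and 119 and 136 at CBC. Its range in mesophotic libraries was 0 to 7664 CPM at WFGB, 0 to 6894 at EFGB, 7.06 to 6831 at PRTER and 0 to 4448 at CBC. In shallow libraries it was 0 to 3482, 0 to 3843, 15.2 to 17791 and 0 to 13766 CPM in the same order. Every pair of depths overlapped, and the highest single values came from shallow libraries at PRTER and CBC.

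**Figure D1:**
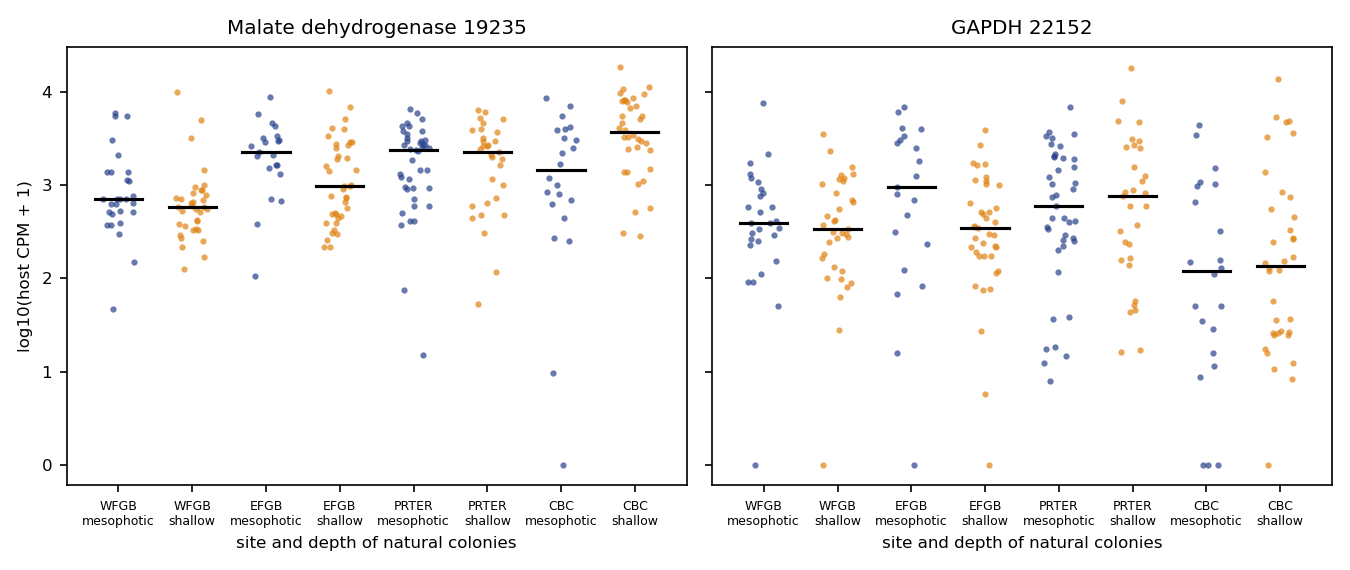
Levels of the malate dehydrogenase Mcavernosa19235 and of GAPDH in each of the natural libraries kept, as log10 of CPM plus 1 (a log scale), by site and depth; each point is 1 library and the black line is the group's median. The depths overlap at all 4 sites, and the median of malate dehydrogenase is highest in CBC shallow libraries (3679 CPM).

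By level pooled over the natural libraries the other members were lower, and they were often not seen in a library. A level given below without a group is pooled over the natural libraries, so libraries with more host counts weigh more. A mean over libraries can differ from it and can change an order of members. Of the 74 members with a row, 3 were detected in at least 80% of natural libraries, 8 in at least 50% and 21 in at least 20%, while 44 were detected in under 10%. Of all of them 20 passed the filter on low counts used for the tests. A member that passed only through a group where it was high had to differ, so counts over the 20 describe those 20 alone.

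Among the enzymes of glycolysis, fructose-bisphosphate aldolase (Mcavernosa30913), which splits the 6-carbon sugar, followed GAPDH at 392 CPM and was detected in 73.1% of libraries. At WFGB its median was 724 CPM in mesophotic libraries and 425 CPM in shallow ones. The medians were 12.4 and 393 at EFGB, 20.5 and 7.98 in PRTER libraries and 113.6 and 3.13 at CBC. These medians were above those of GAPDH in both WFGB groups and in EFGB shallow libraries, and below them in the other groups. The lowest value of aldolase was 0 in all 8 groups, and the highest values ran from 1171 to 3455 CPM. Hexokinase (Mcavernosa04107), which traps glucose as its phosphate, had 108.2 CPM and was detected in 37.9% of libraries, and pyruvate kinase (Mcavernosa13676), the last step, had 95.8 CPM and was detected in 43.5%. The ADP-dependent phosphofructokinase or glucokinase isogroup had 44.6 CPM in 11.9% of libraries, and the platelet-type phosphofructokinase 2.91 CPM in 30.8%. The muscle-type phosphofructokinase (Mcavernosa07897) had 11.2 CPM in 3.56%, with 61.8% of its counts in EFGB shallow library 37. The enolases and phosphoglycerate kinases, which carry the steps between, had few tags. The enolases Mcavernosa21594 and Mcavernosa26200 were detected in 6.7% and 2.4% of libraries, and the phosphoglycerate kinases Mcavernosa09603 and Mcavernosa09607 in 7.5% and 0.8%.

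In the citric acid cycle, fumarate hydratase (Mcavernosa16760) had 44.2 CPM, the alpha subunit of isocitrate dehydrogenase 3 (Mcavernosa22639) 42.6 CPM and citrate synthase (Mcavernosa10542), the entry step, 34.96 CPM. Citrate synthase was detected in 17.8% of libraries. Aconitate hydratase, which converts citrate to isocitrate, was detected in 0.8%. Isocitrate lyase, an enzyme of the glyoxylate bypass that turns acetyl units into sugar precursors, had 17.9 CPM.

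Between the 2 pathways, the catalytic subunit of pyruvate dehydrogenase phosphatase (Mcavernosa11770), which switches pyruvate dehydrogenase on, was the highest at 317.3 CPM and was detected in 64.8% of libraries. The alpha subunit of pyruvate dehydrogenase E1 (Mcavernosa13748) had 75.7 CPM in 53.0% and pyruvate dehydrogenase kinase, which switches the complex off, 31.8 CPM. Mitochondrial pyruvate carrier 2 (Mcavernosa10623) had 53.8 CPM in 71.1% of libraries, while its partner, carrier 1, was detected in 0.8%. Pyruvate formate lyase (Mcavernosa00359), known from anaerobic fermentation in microbes, was the third most widely detected member, with 66.6 CPM in 89.7% of libraries but a median of 4 counts where it was detected. L-lactate dehydrogenase was detected in 2.8% of libraries, and lactate dehydrogenase D (Mcavernosa23645), which acts on the mirror-image lactate, in 28.1%.

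Of the genes that build or spare glucose, phosphoenolpyruvate carboxykinase (Mcavernosa15703), the committed step of gluconeogenesis, had 104.6 CPM in 68.4% of libraries. A carboxylase named by a description of its reaction (Mcavernosa20920) had 60.2 CPM in 41.5%. Glycogen synthase kinase 3, which phosphorylates glycogen synthase among many targets, had 118 CPM, glycogen synthase 56.9 CPM, and glycogenin, the primer of the chain, 2.54 CPM. In the pentose phosphate pathway, transaldolase (Mcavernosa27835) had 57.8 CPM and transketolase (Mcavernosa25159) 24.0 CPM. ATP citrate lyase (Mcavernosa20154), which returns citrate to acetyl-CoA for lipid synthesis, had 22.7 CPM, and 55.3% of its counts came from WFGB shallow library 12.

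**Figure D2:**
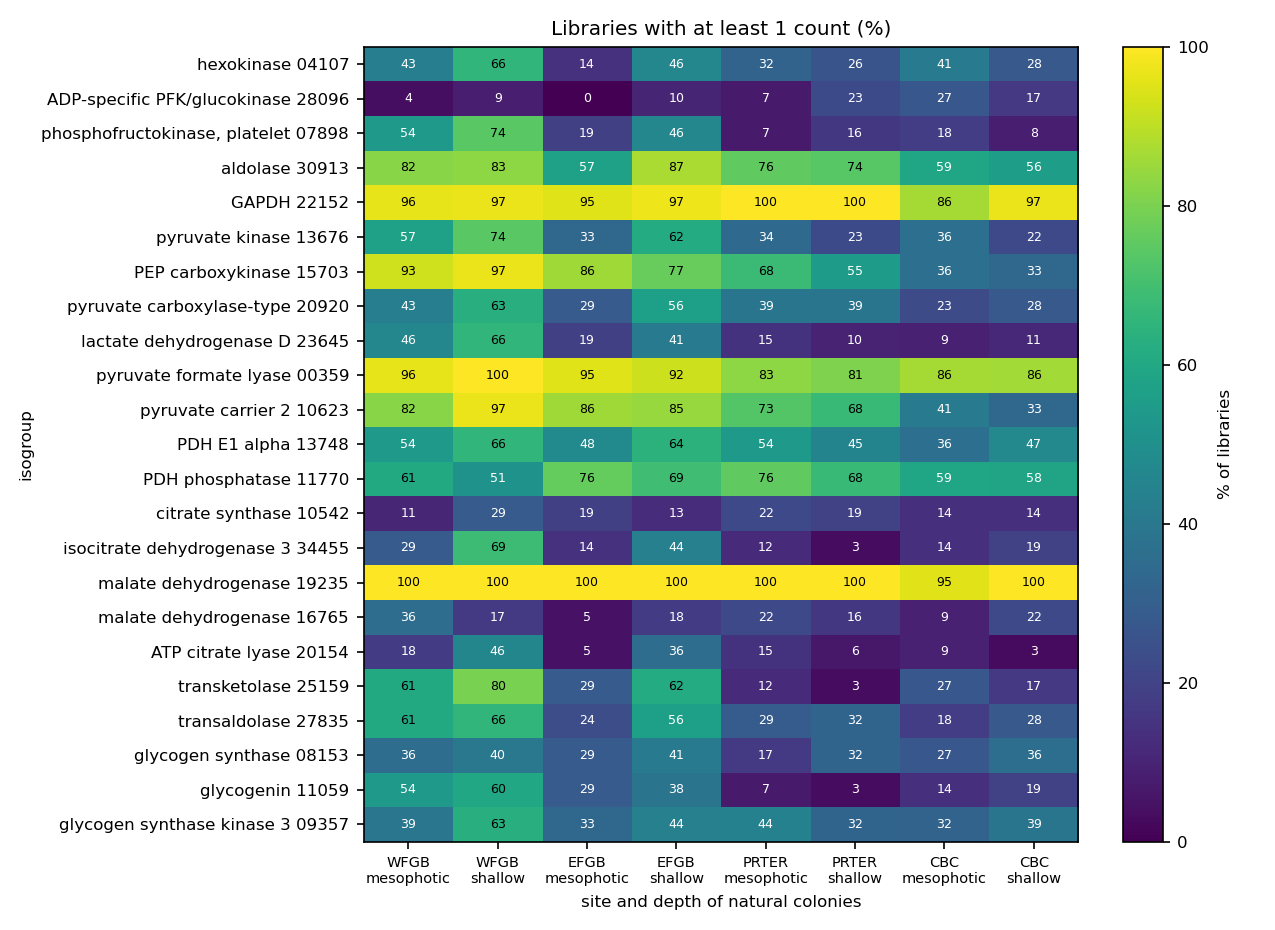
Percentage of natural libraries with at least 1 count (colour scale) for 23 members (rows) in the 8 site and depth groups (columns). Malate dehydrogenase Mcavernosa19235 and GAPDH (Mcavernosa22152) lie between 86.4% and 100% in all 8 groups, while most other rows are higher at WFGB and EFGB shallow than at PRTER and CBC.

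The first question was whether members differed between sites. In edgeR's quasi-likelihood fit with Benjamini-Hochberg adjustment over all host isogroups tested, 14 of the 20 tested members differed between the 4 sites, beside 61.3% of all host isogroups tested, a share near that of the members. With the barcode run as a covariate edgeR called 3 of 20, beside 24.8% of all. Without that covariate the smallest adjusted p were 6.38e-11 for transketolase, 1.41e-06 for lactate dehydrogenase D, 9.81e-06 for phosphoenolpyruvate carboxykinase and 1.39e-05 for pyruvate carrier 2. With limma on log2 CPM, 19 of 30 members differed, beside 72.2% of all isogroups. When the log2 number of detected isogroups was a covariate in limma, 5 of 30 members differed, beside 13.5% of all. Those 5 were transketolase (limma adjusted p = 0.000466), GAPDH (0.00581), pyruvate dehydrogenase phosphatase (0.00836), platelet-type phosphofructokinase (0.00316) and glycogenin (0.0316).

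Transketolase, Mcavernosa25159, was detected in 17 of 28 mesophotic and 28 of 35 shallow libraries at WFGB and in 6 of 21 and 24 of 39 at EFGB. At PRTER it was detected in 5 of 41 and 1 of 31, and at CBC in 6 of 22 and 6 of 36. The fewest detections were thus at PRTER, whose host totals were the deepest. Phosphoenolpyruvate carboxykinase, Mcavernosa15703, was detected in 95.2% of libraries at WFGB, 80% at EFGB, 62.5% at PRTER and 34.5% at CBC. At WFGB its median was 274.8 CPM in mesophotic libraries and 140.96 CPM in shallow ones. The medians were 5.14 and 115.1 at EFGB, 14.1 and 2.17 in PRTER libraries and 0 at both depths at CBC. Pyruvate carrier 2, Mcavernosa10623, followed the same order of sites, with 90.5%, 85.0%, 70.8% and 36.2% of libraries. WFGB had medians of 236 CPM (mesophotic) and 382 CPM (shallow), EFGB of 12.2 and 228, PRTER of 21.2 and 5.16, and CBC of 0 at both depths.

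These detection shares were lower in libraries of low complexity within each site. Complexity is itself a number of detected isogroups, so part of this link holds by definition for any low isogroup. Pyruvate carrier 2 was detected in 50% of the WFGB libraries with under 2000 detected host isogroups and in 96.4% of the others. The same shares were 65% and 95% at EFGB, 52.3% and 100% in PRTER libraries and 26.5% and 88.9% at CBC. For phosphoenolpyruvate carboxykinase they were 62.5% and 100% among WFGB libraries, 60% and 90% at EFGB, 52.3% and 78.6% in PRTER libraries and 22.4% and 100% at CBC. Transketolase remained rare at PRTER in either class, at 2.27% and 17.9%, against 25% and 78.2% among WFGB libraries, 10% and 70% at EFGB, and 10.2% and 77.8% at CBC. Malate dehydrogenase Mcavernosa19235 ran the other way. Its median was 2634 CPM in the 8 WFGB libraries under that number and 578 in the 55 at or above it. At EFGB the medians were 2994 and 734 CPM, at PRTER 2487 and 1382, and at CBC 3305 and 448. The part of complexity in the site differences was not tested beyond the limma covariate given above. That covariate itself differs between sites, so it cannot separate complexity from site.

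**Figure D3:**
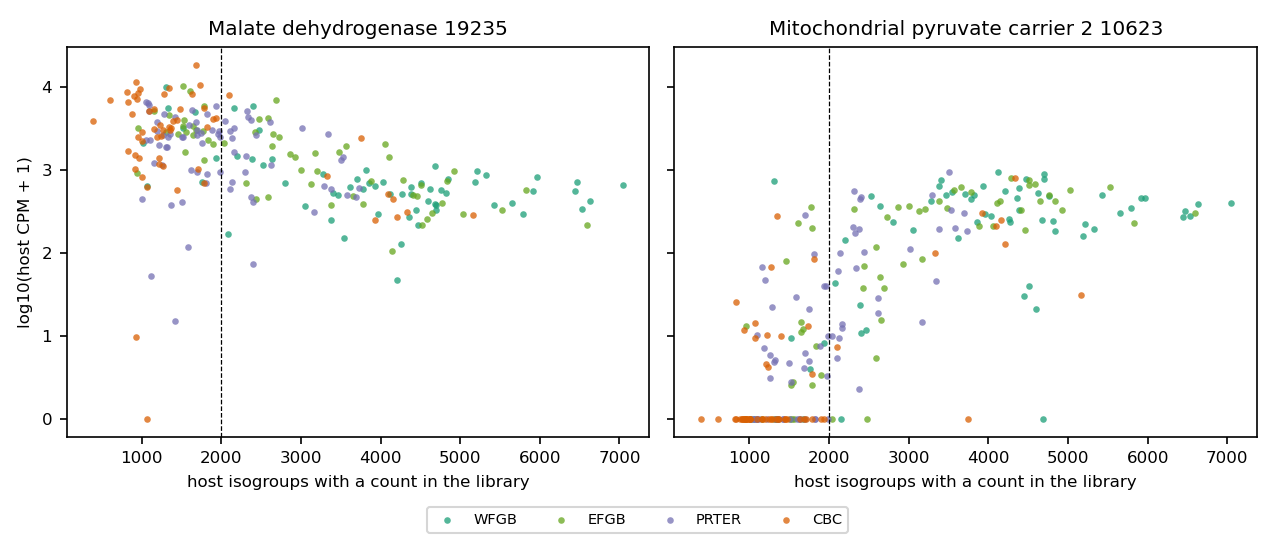
Levels of malate dehydrogenase Mcavernosa19235 and of mitochondrial pyruvate carrier 2, as log10 of CPM plus 1 (a log scale), against the number of host isogroups with a count in the library; each point is 1 natural library, coloured by site, and the dashed line marks 2000 isogroups. At every site the median of malate dehydrogenase is higher to the left of the line, where single libraries reach 0 CPM at CBC and 14.2 CPM at PRTER. Carrier 2 is detected less often to the left, in 26.5% of CBC libraries and 65% of EFGB libraries there.

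The depth comparison asked whether mesophotic and shallow colonies differ, on average over the 4 sites and at each. On average 1 of 20 tested members, hexokinase, was called by edgeR, beside 15.9% of all host isogroups tested. The median log2 fold, mesophotic minus shallow, was -0.21 over the 20 members and -0.09 over all tested. limma called 0 of 30 members, with 1 of them at an unadjusted p under 0.05, beside 0.543% of all isogroups. Per site, edgeR called 1 of 20 members at WFGB, beside 2.75% of all host isogroups, 3 at EFGB, beside 8.75%, 4 at PRTER, beside 20.4%, and 8 at CBC, beside 28.3%.

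Hexokinase, Mcavernosa04107, was detected in 12 of 28 mesophotic and 23 of 35 shallow libraries at WFGB, with highest values of 1627 and 423 CPM. At CBC it was detected in 9 of 22 mesophotic and 10 of 36 shallow libraries, with highest values of 5585 and 1407 CPM. The median was 0 in all groups but WFGB shallow, at 61.9 CPM. Over the 4 sites its edgeR log2 fold was 1.48 ± 0.49 (SE; adjusted p = 0.0211), while limma gave -0.10. WFGB mesophotic library 33 held 23.9% of its counts, and without it the edgeR log2 fold was 0.76 (adjusted p = 0.302). At CBC the edgeR log2 fold was 3.66 ± 1.04 (adjusted p = 0.00374), and without CBC mesophotic library 15 it was 0.68 (adjusted p = 0.674). Detection was less frequent in mesophotic libraries at WFGB and at EFGB, where 3 of 21 mesophotic and 18 of 39 shallow libraries had a count, and more frequent at CBC and at PRTER, where 13 of 41 and 8 of 31 did.

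**Figure D4:**
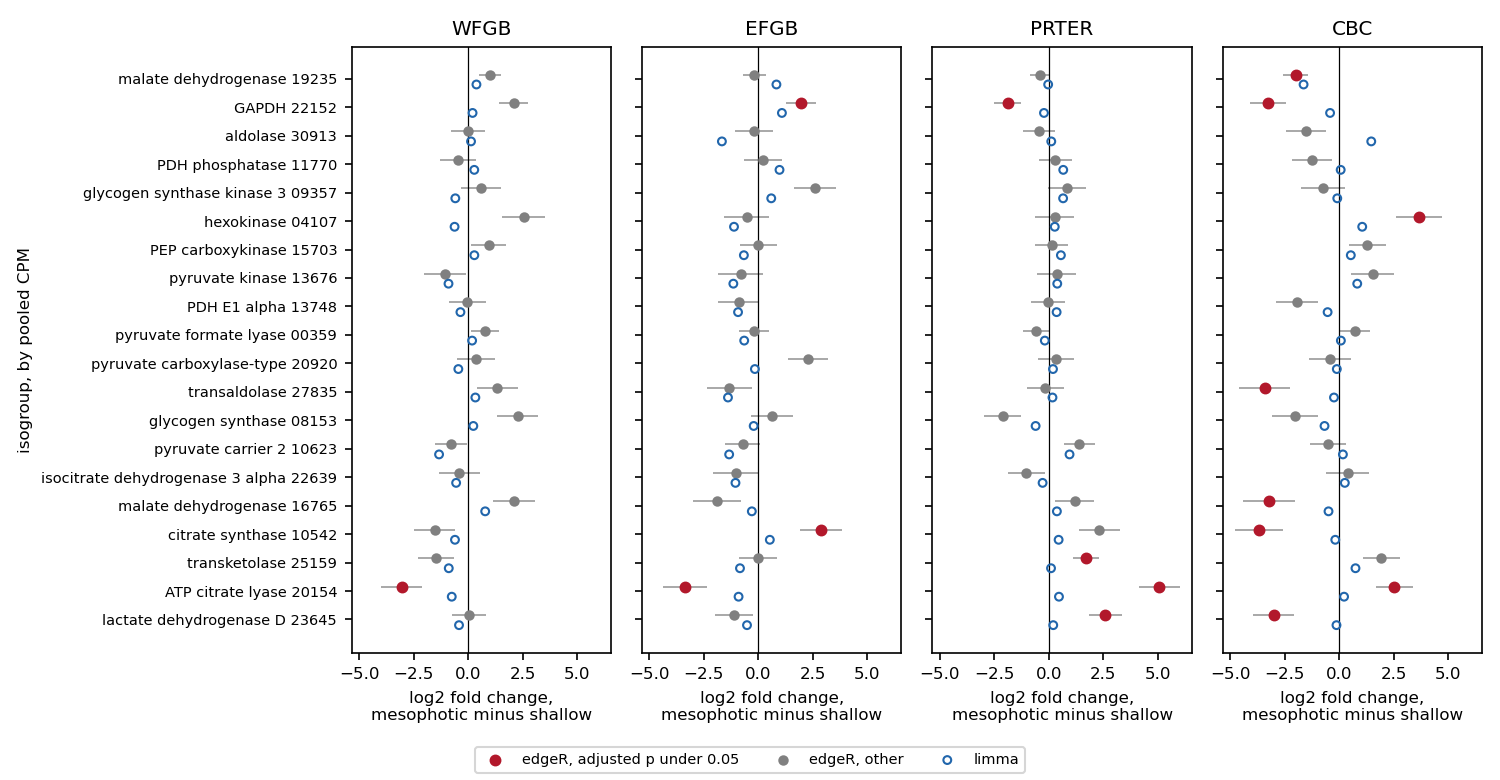
Log2 fold, mesophotic minus shallow, of the 20 tested members at each of the 4 sites; filled points are edgeR estimates with their standard errors, red where the adjusted p is under 0.05, and open blue points are limma estimates on log2 CPM. Red points number 1 at WFGB, 3 at EFGB, 4 at PRTER and 8 at CBC, beside 2.75%, 8.75%, 20.4% and 28.3% of all host isogroups, and most limma points lie nearer to 0.

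At WFGB the member called was ATP citrate lyase, beside 2.75% of all host isogroups with edgeR and 0.573% with limma, which called no member (5 of 30 had an unadjusted p under 0.05). ATP citrate lyase, Mcavernosa20154, was detected in 5 of 28 mesophotic libraries, the highest at 169 CPM, and in 16 of 35 shallow ones, the highest at 920.2 CPM. The edgeR log2 fold was -3.04 ± 0.94 (adjusted p = 0.0483). WFGB shallow library 12 held 88.6% of its counts there, and without it the log2 fold was -1.20 (adjusted p = 0.635). Of the 16 shallow libraries with a count, 14 were among the 22 of campaign X-14, against 2 of the 13 others. Without X-14 libraries the edgeR log2 fold was 0.26. GAPDH had an edgeR log2 fold of 2.09 ± 0.67 there and did not pass (adjusted p = 0.0595).

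At EFGB edgeR called citrate synthase, GAPDH and ATP citrate lyase, beside 8.75% of all host isogroups. Citrate synthase, Mcavernosa10542, was detected in 4 of 21 mesophotic and 5 of 39 shallow libraries, with highest values of 402 and 215 CPM. Its edgeR log2 fold was 2.87 ± 0.95 (adjusted p = 0.0372), and 2.16 (adjusted p = 0.161) without EFGB mesophotic library 21, which held 47.5% of its counts. GAPDH had an edgeR log2 fold of 1.97 ± 0.68 (adjusted p = 0.0491), and 1.42 (adjusted p = 0.173) without EFGB mesophotic library 19. ATP citrate lyase, Mcavernosa20154, was detected in 1 of 21 mesophotic libraries, at 70.2 CPM, and in 14 of 39 shallow ones, up to 183.2 CPM. Its edgeR log2 fold was -3.37 ± 1.02 (adjusted p = 0.0210), and -3.21 (adjusted p = 0.0283) without the library with the most counts. It was detected in 10 of the 25 X-14 libraries at EFGB, in 3 of 10 shallow and 0 of 4 mesophotic libraries of V-16, and in 1 of 4 shallow and 1 of 16 mesophotic libraries with coded titles.

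With limma, 2 of 30 members were lower in mesophotic libraries at EFGB, beside 16.4% of all isogroups. Transaldolase, Mcavernosa27835, was detected in 5 of 21 mesophotic and 22 of 39 shallow libraries, with medians of 0 and 21.9 CPM, and its limma log2 fold was -1.39 ± 0.49 (adjusted p = 0.0364). An isocitrate dehydrogenase 3 isogroup, Mcavernosa34455, had a limma log2 fold of -0.69 ± 0.23 (adjusted p = 0.0304). Neither passed with the number of detected isogroups as covariate or without X-14 libraries. The median number of detected host isogroups was 1782 in mesophotic and 3570.0 in shallow libraries there.

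At PRTER edgeR called 4 of 20 members, beside 20.4% of all host isogroups, and limma called 0 of 30, with 3 at an unadjusted p under 0.05, beside 0.603% of all. Here ATP citrate lyase was higher at mesophotic depth, against its direction at WFGB and EFGB. Mcavernosa20154 was detected in 6 of 41 mesophotic libraries, up to 818 CPM, and in 2 of 31 shallow ones, up to 35.5 CPM. Its edgeR log2 fold was 5.07 ± 0.94 (adjusted p = 5.81e-06) and its limma log2 fold 0.47. Without PRTER mesophotic library 30 the edgeR log2 fold was 4.06 (adjusted p = 8.78e-05). The shares of libraries with a count in the 2 campaigns were 1 of 22 mesophotic and 0 of 5 shallow in VIII-13, and 5 of 19 and 2 of 26 among coded titles.

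GAPDH was lower in mesophotic PRTER libraries, with an edgeR log2 fold of -1.88 ± 0.62 (adjusted p = 0.0178), and -1.80 (adjusted p = 0.0267) without its highest library. With the barcode run as covariate its log2 fold was 0.10. Lactate dehydrogenase D, Mcavernosa23645, was detected in 6 of 41 mesophotic libraries, up to 194 CPM, and 3 of 31 shallow ones, up to 37.9 CPM. In edgeR its log2 fold was 2.60 ± 0.76 (adjusted p = 0.00648), and 1.80 (adjusted p = 0.0515) without the library with the most counts. Transketolase had a log2 fold of 1.70 ± 0.61 (edgeR adjusted p = 0.0305), and 0.38 (adjusted p = 0.474) without PRTER mesophotic library 28, which held 58.3% of its counts there.

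At CBC 8 of 20 members were called by edgeR, beside 28.3% of all host isogroups. Of the 8, 2 were higher in mesophotic libraries, beside 12.2% of all, and 6 were lower, beside 16.1% of all. The median log2 fold was -1.002 over the members and -0.26 over all tested. limma called 0 of 30, with 2 at an unadjusted p under 0.05, beside 0.241% of all, and DESeq2 called 3 of 20. Citrate synthase (-3.67 ± 1.12, edgeR adjusted p = 0.00685) and lactate dehydrogenase D (-3.0 ± 0.94, adjusted p = 0.00935) each had over 90% of their CBC counts in 1 library, 92.1% and 92.6%. GAPDH (-3.27 ± 0.82, edgeR adjusted p = 0.000941) had 56.1% in CBC shallow library 33. Without the library with the most counts, the log2 fold was -1.02 for citrate synthase, -0.63 for lactate dehydrogenase D and -0.58 for GAPDH, and none passed. Transaldolase (-3.41 ± 1.16, edgeR adjusted p = 0.0171) and malate dehydrogenase Mcavernosa16765 (-3.20 ± 1.19, adjusted p = 0.0295) did not pass without 1 library either (adjusted p = 0.0985 and 0.0996). ATP citrate lyase (2.53 ± 0.85, edgeR adjusted p = 0.0155) was detected in 2 of 22 mesophotic and 1 of 36 shallow libraries, and without CBC mesophotic library 8 its log2 fold was -0.75.

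Only malate dehydrogenase Mcavernosa19235 among the 8 kept its call at CBC without its top library. It was lower in mesophotic libraries by an edgeR log2 fold of -1.99 ± 0.58 (adjusted p = 0.00491), and -1.44 (adjusted p = 0.0429) without CBC shallow library 33. Its limma log2 fold was -1.63 ± 0.45 (adjusted p = 0.101), and with the number of detected isogroups as covariate -1.59 ± 0.41 (adjusted p = 0.0359), beside 0.362% of all isogroups called in that fit. Its edgeR log2 fold lay between -1.44 and -0.89, not past the threshold, with RLE or TMMwsp scaling, without the filter on low counts, without X-14 libraries, with the barcode run as covariate and at 100000 host counts or more, while DESeq2 called it at -2.09. In libraries with under 2000 detected isogroups its median was 2349 CPM in 18 mesophotic and 4072 CPM in 31 shallow libraries. In the others it was 358 CPM in 4 and 514 CPM in 5. The shallow median was the higher in both classes. Beside it, the summed level of the mucus and gland isogroups had a median of 26683 CPM in CBC mesophotic libraries (from 9819 to 54991) and 16113 CPM in shallow ones (from 4804 to 48131). In each of the 2 groups 46 of those isogroups were at 0. Single isogroups of the list did not follow the sum. Of the 21 tested by edgeR at CBC, 6 were called, beside 28.3% of all host isogroups. Of these, 2 were higher and 4 lower in mesophotic libraries, and the median log2 fold over the 21 was -0.41. The part of the mucus and gland isogroups in the result was not tested.

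The differences between depths themselves differed between sites for 10 of the 20 members by edgeR's test of depth by site, beside 43.2% of all host isogroups tested. With limma 2 of 30 did, pyruvate carrier 2 (adjusted p = 0.0355) and malate dehydrogenase Mcavernosa19235 (adjusted p = 0.0282), beside 6.22% of all. Site by site, carrier 2 (Mcavernosa10623) had its higher median in shallow libraries at WFGB and EFGB and in mesophotic ones at PRTER. Malate dehydrogenase had its higher median in mesophotic libraries at WFGB, EFGB and PRTER and in shallow ones at CBC. Among libraries with under 2000 detected isogroups, its shallow median was the higher at every site. At EFGB it was 3345 CPM in 7 shallow and 2935 CPM in 13 mesophotic libraries. Among the others the mesophotic median was the higher at WFGB, EFGB and PRTER, at EFGB with 1121 CPM in 8 libraries against 734 CPM in 32.

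Of 60 other genes of these pathways with a row, taken from a list of gene names outside the members, 11 were tested with the natural libraries. By edgeR 0 were called for the mean depth, at WFGB and at EFGB, beside 15.9%, 2.75% and 8.75% of all host isogroups, 5 at PRTER, beside 20.4%, and 2 at CBC, beside 28.3%. Of the same list, limma called 0 in any of the 5 depth comparisons. At PRTER 6-phosphogluconate dehydrogenase (4.56 ± 0.91, edgeR adjusted p = 3.3e-05), a facilitated glucose transporter of family 2, member 10 (4.30 ± 0.97, adjusted p = 0.000262), and fructose-1,6-bisphosphatase 1 (2.67 ± 0.99, adjusted p = 0.0404) were higher in mesophotic libraries on the log2 scale. At CBC fructose-1,6-bisphosphatase 1 (-3.81 ± 1.24, edgeR adjusted p = 0.0122) and 6-phosphogluconate dehydrogenase (-3.66 ± 1.24, adjusted p = 0.0168) were lower. The other calls at PRTER were sucrase-isomaltase, lower, and a pyrimidine synthesis enzyme that the list caught by a word of its name, higher.

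The experiment asked how mesophotic colonies change when transplanted, beside controls that stayed at either depth. The transplants were compared with both controls at the same time, so these comparisons share libraries, and so do successive times of an arm. The members' share of host counts had a higher median at time 6 than at baseline in every arm, and no test was made of the share. In transplants the median was 0.343% at baseline, 0.784% at 6 and 0.724% at 12. In mesophotic controls it was 0.424%, 0.646% and 0.263%, and in shallow controls 0.456%, 0.752% and 0.332%. The share was higher at 6 than at baseline in 6 of 7 transplanted colonies, 7 of 7 mesophotic controls and 6 of 9 shallow controls. It was lower at 12 than at 6 in 2 of 4, 5 of 5 and 8 of 9 colonies. Symbiont isogroups held a median of 10.9%, 6.26% and 0.550% of all counts in transplants at baseline, 6 and 12. The 5 transplants at 12 ran from 0.403% to 13.8%. The medians were 7.81%, 4.49% and 11.1% in mesophotic controls and 8.43%, 3.37% and 8.71% in shallow controls. The part of the symbiont share in the results below was not tested.

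Malate dehydrogenase Mcavernosa19235 ran from 45.7 to 2615 CPM in transplants at baseline with a median of 702, and from 410.0 to 13777 with a median of 3089.5 at 6. At 12 the 5 transplants had 1114, 4549, 4814, 4826 and 5588 CPM. Mesophotic controls had medians of 1024, 1596 and 667 CPM at the 3 times, within ranges of 373 to 5532, 527 to 5815 and 64.6 to 5279. Shallow controls had medians of 893, 4686 and 1078 CPM, within 247.8 to 6864, 95.6 to 9627 and 166 to 3814. At 12, 4 of 5 transplants lay above all 9 shallow controls, and the other groups of each time overlapped. The edgeR log2 fold of transplants at 12 was 1.85 ± 0.86 against shallow controls (adjusted p = 0.119) and 2.34 ± 0.98 against mesophotic ones (adjusted p = 0.0964). From baseline to 6 its edgeR log2 fold was 3.30 ± 0.93 in transplants, higher in 7 of 7 colonies, and did not pass (adjusted p = 0.108). In shallow controls it was 2.45 ± 0.78, higher in 7 of 9 colonies (edgeR adjusted p = 0.0510), and from 6 to 12 it was -2.04 ± 0.76, lower in 7 of 9 (adjusted p = 0.0910). The median number of detected host isogroups in shallow controls was 3383 at baseline, 1485 at 6 and 3221 at 12, and in transplants 3540.0, 2392.5 and 1633. With that number as a covariate, the limma log2 fold from baseline to 6 went from 1.48 to 0.10 in shallow controls and from 2.49 to 1.79 in transplants. The summed level of the mucus and gland isogroups in shallow controls had medians of 23729, 8261 and 25960 CPM at baseline, 6 and 12, within 13281 to 35836, 4479 to 20496 and 19597 to 37230, with 50, 58 and 43 of them at 0 in every library. In transplants those medians were 17521, 17166.5 and 14173 CPM. The 15 neuron isogroups had medians of 445.8, 12.5 and 185.997 CPM in shallow controls and 465.6, 13.2 and 28.2 CPM in transplants. The part of these cell types in the change was not tested.

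GAPDH, Mcavernosa22152, had a median of 576 CPM in transplants at baseline (from 49.8 to 3035) and 1562 at 6 (from 87.8 to 9784). At 12 the 5 transplants had 329, 392, 1386, 2915 and 3943 CPM. Mesophotic controls had medians of 362, 755 and 132 CPM within 90.5 to 6136, 400.4 to 2346 and 19.5 to 6867, and shallow controls 658, 286.6 and 94.3 CPM within 246 to 1728, 23.7 to 4483 and 0 to 623. At 12, 3 of 5 transplants lay above all 9 shallow controls. That comparison gave an edgeR log2 fold of 3.28 ± 1.09 (adjusted p = 0.0459), and a limma log2 fold of 3.53 (adjusted p = 0.334). Leaving out 1 of the 14 libraries at a time ended the edgeR call for 12 of them.

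**Figure D5:**
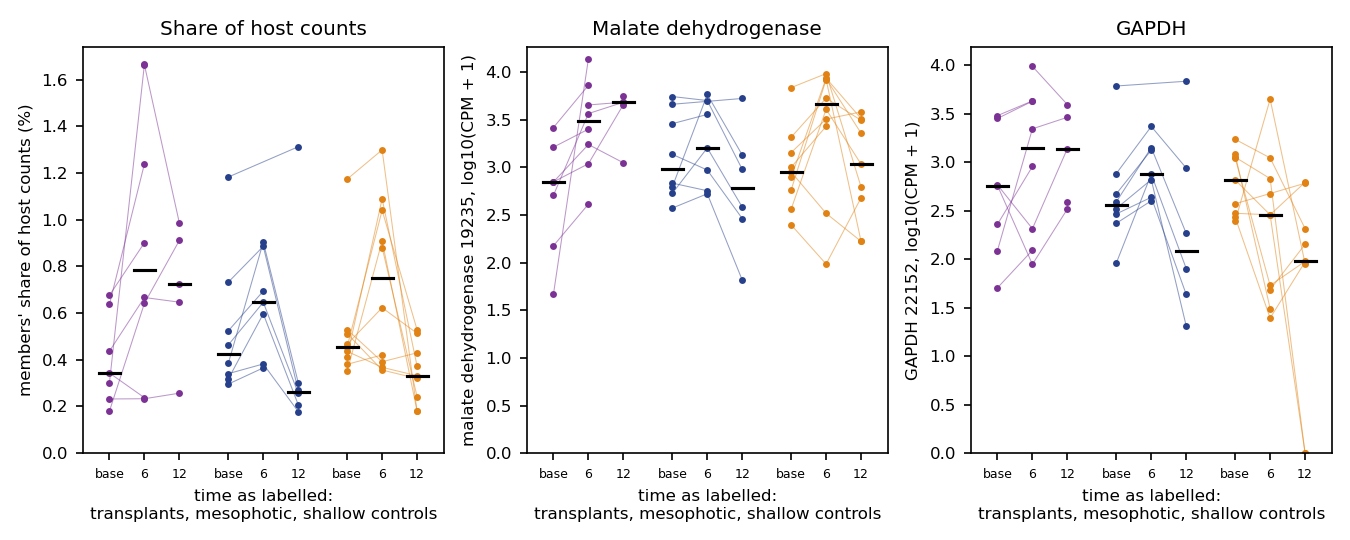
Members' share of host counts in percent, and CPM of malate dehydrogenase Mcavernosa19235 and GAPDH (log10 of CPM plus 1, a log scale), in transplants, mesophotic controls and shallow controls at baseline, time 6 and time 12; points are libraries, thin lines join libraries of 1 colony and the black line is the median. The share has its highest median at 6 in each arm, and malate dehydrogenase is higher at 6 than at baseline in 7 of 7 transplanted colonies.

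Calls in the experiment were few and single members carried them. limma called 1 of 32 members in these comparisons, aldolase in shallow controls from baseline to 6. Transplants against mesophotic controls gave 0 of 20 members by edgeR at either time, with 6 at an unadjusted p under 0.05 at 6 and 6 at 12, beside 1.9% of all host isogroups at 6 and 0.112% at 12. Against shallow controls 1 member was called at 6, beside 2.43% of all, and 2 at 12, beside 8.3% of all. Mesophotic against shallow controls gave 1 member at 6, beside 4.94%, and 0 at 12, beside 0%, with 1 member at an unadjusted p under 0.05. From baseline to 6, 0 members were called in transplants and mesophotic controls, where edgeR called 0% of all host isogroups and 4 and 3 members had an unadjusted p under 0.05, and 1 was called in shallow controls, beside 3.97%. From 6 to 12, 2 members were called in transplants, beside 9.5%, 0 in mesophotic controls, beside 0% and with 3 at an unadjusted p under 0.05, and 0 in shallow controls, beside 5.34% and with 6.

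Some members without a call had the smallest p of a direction. In transplants against mesophotic controls at 6, transaldolase had the smallest p among the higher members (edgeR log2 fold 6.44 ± 2.32, adjusted p = 0.113). At 12 malate dehydrogenase Mcavernosa16765 had it among the higher members (5.68 ± 2.24, edgeR adjusted p = 0.0814). Lactate dehydrogenase D had it among the lower ones (-4.79 ± 1.86, edgeR adjusted p = 0.0772). Between the controls at 12 Mcavernosa16765 had the smallest p among members lower in mesophotic ones (-8.86 ± 2.29, edgeR adjusted p = 0.104). GAPDH had the smallest p among those higher there (1.96 ± 1.08, edgeR adjusted p = 0.710). From baseline to 6 in mesophotic controls fumarate hydratase had 4.34 ± 1.95 (edgeR adjusted p = 0.288) and transaldolase -6.40 ± 2.27 (adjusted p = 0.136). The standard errors of these folds exceed 1 on the log2 scale.

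The carboxylase Mcavernosa20920 had no count in any of 8 transplants at 6, while 6 of 10 shallow controls had one, at 2.84, 8.95, 47.8, 61.1, 383 and 388 CPM. Over the pooled libraries that is 106 CPM in shallow controls against a limit of 1.54 CPM in transplants, 3 counts over the group, so at least 69.2-fold lower in transplants, by counting error alone (edgeR adjusted p = 0.0257). The shallow controls with 383 and 388 CPM held 166 and 98 of its counts, and without either of them the isogroup had too few counts to be tested. Leaving out 1 of the other 16 libraries ended the call once. Mesophotic controls at 6 had 0, 0, 0, 0, 25.6, 31.7 and 70.8 CPM. Transplants against these gave an adjusted p of 0.0637 by edgeR.

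Pyruvate kinase, Mcavernosa13676, had 0, 0, 0, 428 and 615 CPM in transplants at 12, and 55.3 CPM in 1 of 9 shallow controls with the other 8 at 0. The edgeR log2 fold was 6.21 ± 2.05 (adjusted p = 0.0459), and the call ended when 1 library was left out for 13 of 14. Citrate synthase, Mcavernosa10542, had 0, 0, 0, 81.9, 144, 581 and 626 CPM in mesophotic controls at 6, and 61.4 CPM in 1 of 10 shallow controls with the other 9 at 0. The edgeR log2 fold was 5.77 ± 1.87 (adjusted p = 0.0492), and the call ended for 14 of 17 libraries left out. In both, a few libraries were high and the rest of both groups at 0.

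Over time in shallow controls, hexokinase (Mcavernosa04107) had 0, 0, 0, 0, 49.6, 218, 223, 382 and 423 CPM at baseline, and at 6 it had 3.53, 20.5 and 47.8 CPM in 3 of 10 libraries with 7 at 0. Its edgeR log2 fold was -6.08 ± 1.78 (adjusted p = 0.0308), and -4.81 (adjusted p = 0.149) with the colony as a replicate block. Leaving out 1 of the 10 libraries at 6 ended the call for 4, and no baseline library was left out. Aldolase, Mcavernosa30913, had a median of 1011 CPM in shallow controls at baseline, with 8 of 9 detected, and 5.37 CPM at 6, with 7 of 10 detected and 1159.8 CPM at most. The limma log2 fold of aldolase was -4.13 ± 1.13 (adjusted p = 0.0443), and -3.95 (adjusted p = 0.0274) with the block, beside 1.19% of all isogroups called by limma without it. When limma also held the log2 number of detected isogroups, it was -2.08 (limma adjusted p = 0.737), and 0 of 32 members were called, beside 0% of all. The detected isogroups and the mucus and gland level, whose medians were also lower at 6, are given with malate dehydrogenase. Pyruvate carrier 2, Mcavernosa10623, ran from 36.7 to 644 CPM with a count in all 9 shallow controls at baseline, and at 6 had 0 in 4 of 10 libraries and 2.98, 3.53, 11.9, 51.04, 348 and 860.0 CPM in the others. It passed in limma with the block alone, at a log2 fold of -3.14 (adjusted p = 0.0474), and the limma covariate gave -1.69 (adjusted p = 0.737).

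In transplants from 6 to 12, hexokinase (Mcavernosa04107) had 4.67 and 303.5 CPM in 2 of 8 libraries at 6 and no count in 5 at 12. The pooled level was 120.4 CPM at 6 against a limit of 1.42 CPM at 12, so at least 84.5-fold lower, by counting error alone (edgeR adjusted p = 0.0472). That call rests on 1 EFGB transplant at 6 with 234 counts, whose title carries IX-16, as does 1 other. The rest of the transplants at 6 carry V-16. The baselines of these 2 transplants with IX-16 carry V-16, and those of the other transplants have coded titles. Without these 2 transplants the edgeR log2 fold was 0.90, and with the colony as a replicate block it was -2.47 (adjusted p = 0.655). Leaving out 1 of the 13 libraries ended the call for 8. Lactate dehydrogenase D, Mcavernosa23645, had 2, 3 and 4 counts in 3 of 8 transplants at 6, up to 155.6 CPM, and no count in the 5 at 12. That is at least 3.24-fold lower (edgeR adjusted p = 0.0497), and with the colony as a replicate block the adjusted p was 0.537. Its call ended for 10 of 13 libraries left out.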

How the data were processed

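The deposited table holds raw counts of 3′ tags per isogroup and library, host and symbiont in 1 table, and every value is a whole number. A deposited lookup table gives names. Not given in the sources used here are the aligner, the read filters, duplicate removal and whether strand was used. Groups follow the labels for site, depth and time. Where no label says that libraries are separate colonies, p-values measure only the spread between these libraries. The members, lists, tests and naming rule were chosen with earlier results of these data known. 1 empty column was not used.

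Host isogroups alone were analysed, in libraries with at least 20000 host counts. The tests used edgeR 4.0.16 in R 4.3.3, with its robust quasi-likelihood test and TMM scaling, on the isogroups that passed filterByExpr (3703 for natural libraries, 3580 for the experiment), with 1 mean per site and depth, or per arm and time plus site. Folds are log2, and an adjusted p under 0.05 (Benjamini-Hochberg over all isogroups tested) was a call. limma 3.58.1 (trend, robust) was fitted beside it to log2 CPM with a prior count of 2, for isogroups detected in at least 10% of libraries (6629 and 7161), and its folds understate low isogroups. DESeq2 1.42.0 was an alternative. The script was tested on simulated data. Members were named by role, by calls and by the smallest p in each direction.

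Libraries of the same colony, tied by title tags, deviated together weakly: over 58 pairs the median correlation was 0.0781, with 24 pairs over 0.1, against -0.00942 over 227 pairs of other colonies of the same arm and site. No pair of libraries had identical counts. A limit for a group without counts is 3 counts over the group and covers counting error only.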

Additional observations from a re-analysis of the deposited data

Results flagged for a closer look

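In the experiment, 3 measures were looked at in each of 9 groups. In 9 of the 27 sets of values 1 library lay far from the others of its group by Dixon's ratio. Its chance rate of about 1 in 20 is for independent sets of normally distributed values. These sets are not independent, since the members' share includes the counts of malate dehydrogenase Mcavernosa19235 and GAPDH. Whether the values are normally distributed was not tested, so the 9 sets cannot be weighed against that rate. A single EFGB mesophotic control accounts for 3 of the 9 sets, all at 12. The other mesophotic controls at 12 are from WFGB, so this library cannot be told apart from its site. It had a members' share of 1.31% of host counts, 5279 CPM of malate dehydrogenase Mcavernosa19235 and 6867 CPM of GAPDH. The same colony had the high GAPDH of the mesophotic controls at baseline, 6136 CPM. A single EFGB shallow control at baseline had a share of 1.17% and 6864 CPM of malate dehydrogenase. GAPDH was high in 1 WFGB transplant at 6, at 9784 CPM, and in 1 WFGB shallow control at 6, at 4483 CPM. Malate dehydrogenase was low in 1 WFGB transplant at 12, at 1114 CPM.

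The difference between depths differed between sites for 10 of 20 members in edgeR's test of depth by site, beside 43.2% of all host isogroups. The adjusted p was 2.4e-09 for ATP citrate lyase, which was lower in mesophotic libraries at WFGB and EFGB and higher at PRTER and CBC, and 3.98e-07 for GAPDH. The log2 fold of ATP citrate lyase was 0.26 at WFGB without X-14 libraries and -0.75 at CBC without CBC mesophotic library 8. The adjusted p was 7.82e-05 for citrate synthase, 0.000377 for lactate dehydrogenase D, 0.00424 for malate dehydrogenase Mcavernosa16765 and 0.00543 for glycogen synthase. It was 0.0059 for malate dehydrogenase Mcavernosa19235, 0.0104 for transketolase, 0.0286 for transaldolase and 0.0323 for hexokinase.

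The 13 libraries left out for low host counts hold 686 counts of 42 members, 0.365% of their 187891 host counts, against 0.710% in the natural libraries kept.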

How the results depend on the processing

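Few calls of members held across settings, and the cause was not tested. Of the 24 named calls made by edgeR with TMM, limma passed 0, limma with the number of detected isogroups 1, RLE scaling 9, TMMwsp 18 and no filter on low counts 16. Of the calls in natural libraries, 4 of 17 passed without the library with the most counts. ATP citrate lyase at PRTER passed in every edgeR setting run, but not in limma, and DESeq2 gave a log2 fold of 5.72 with no adjusted p. At EFGB another scaling moved the median log2 fold of all isogroups from -0.24 (TMM) to -0.64 (RLE) or 0.54 (TMMwsp), so directions there are relative to that shift.

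Members called moved by over 1.5 times in the settings below. Of members, 20 were tested by edgeR and DESeq2, 30 by limma (28 without X-14), 24 without X-14 or at 100000 host counts, and 73 without the filter. Without it the shares of all isogroups called were 12.0% for the mean depth, 14.0%, 23.8%, 25.3% and 19.0% at WFGB, EFGB, PRTER and CBC, 39.4% for depth by site and 51.2% between sites. For the mean depth (1) they were 7 without the filter and 0 with RLE, limma in its 3 forms, DESeq2, no X-14 libraries or the barcode run. At WFGB (1) they were 11 without the filter, 2 with TMMwsp or DESeq2, and 0 with RLE, limma in its 3 forms, no X-14 libraries, the barcode run or 100000 host counts. At EFGB (3) they were 23 without the filter, 6 at 100000 host counts, 5 with TMMwsp, 1 with the barcode run, and 0 with RLE, the limma covariate or limma without X-14. At PRTER (4) they were 17 without the filter, 1 with DESeq2 and 0 with limma in its 3 forms. At CBC (8) they were 13 without the filter, 5 with TMMwsp, 4 without X-14, 3 with DESeq2, 2 with RLE, 1 with the barcode run or the limma covariate, and 0 with limma with or without X-14. For depth by site (10) they were 27 without the filter, 5 with the barcode run, 4 with RLE, 2 with limma, and 0 with its covariate or with limma without X-14. edgeR without X-14 called 10 of 24 there. Between sites (14) they were 40 without the filter, 5 with the limma covariate and 3 with the barcode run.

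In the experiment 20 members were tested by edgeR and DESeq2, 32 by limma, 65 without the filter and 19 without the IX-16 transplants. DESeq2 called 1 and 2 members in transplants against mesophotic controls at 6 and 12 (0 each), 2 and 5 against shallow controls (1 and 2), 0 and 1 in mesophotic against shallow controls (1 and 0), 1 in transplants and 3 in shallow controls from baseline to 6 (0 and 1), and 1, 1 and 3 in transplants, mesophotic and shallow controls from 6 to 12 (2, 0 and 0). Without the filter these were 1 and 4 for transplants against mesophotic and shallow controls at 6, 0 for transplants against shallow controls at 12, 3 between controls at 6 and 1 in shallow controls from 6 to 12. limma and its covariate gave 0 in each comparison where edgeR called a member, except that limma alone called 1 in shallow controls from baseline to 6. RLE gave 1 in transplants against shallow controls at 12 and 0 between controls at 6, and TMMwsp 2 in shallow controls from baseline to 6. Without the 2 IX-16 transplants there were 0 calls against shallow controls at 6, between controls at 6 and in transplants from 6 to 12.

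Title tags pair the libraries of a colony. With the colony as a replicate block edgeR called 0 members in every change over time, and limma 2 in shallow controls from baseline to 6 and 0 elsewhere. The log2 fold of lactate dehydrogenase D in transplants from 6 to 12 was -4.64 with the replicate block, and -1.65 in limma with it.

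With 1 library of time 6 or 12 left out, and no baseline library, the number of members called ran from 0 to 3 between controls at 6, 0 to 5 in shallow controls over either interval, 0 to 1 in transplants against mesophotic controls at 6, 0 to 5 and 0 to 2 against shallow controls at 6 and 12, and 0 to 3 in transplants from 6 to 12. It was 0 in each of the other comparisons run so. The log2 fold of hexokinase in transplants from 6 to 12 ran from -8.57 to 0.26.

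Reversed values were hexokinase for the mean depth in limma (-0.10), ATP citrate lyase at WFGB without X-14 in edgeR (0.26) and limma (0.10) and at CBC without its top library (-0.75), GAPDH at PRTER with the barcode run (0.10), transketolase at PRTER with the limma covariate (-0.025), and hexokinase in transplants from 6 to 12 without the 2 IX-16 transplants (0.90) or without the EFGB transplant 1 at 6 (0.26). Depth limits what a 0 shows, since 1 count is worth up to 49.99 CPM.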
